A study of Rattus norvegicus with 15 samples.

Results

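Myosin heavy chains are the motor subunits of the thick filament and of the contractile bundles outside the sarcomere, and 6 of their genes were followed through the culture of a rat myoblast line with and without retinoic acid (RA). The list was made by name, with earlier results of these data known. Of the 6 listed, 5 were matched to a row of the count table of 11574 genes, and Myh1 was not analysed here. The 3 sarcomeric chains with a row were Myh3, Myh4 and Myh8, and the 2 nonmuscle chains were Myh9 and Myh10.

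Each heavy chain folds into a motor head that binds actin and splits ATP and a long tail that pairs with a partner chain, and small light chains clasp the neck between them. In skeletal muscle the sarcomeric heavy chains succeed each other in development: Myh3 encodes the embryonic form, Myh8 the perinatal form, and Myh1 and Myh4 fast forms of adult fibres. The nonmuscle chains Myh9 and Myh10 move the cortex and the stress fibres of most cells, myoblasts included. RA is made from vitamin A and binds nuclear receptors that switch genes on or off.

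The cells were H9c2, a line of wild-type rat myoblasts labelled as myocardium. Group T0 was harvested at day 0 without RA, T7-RA and T14-RA at days 7 and 14 in low serum without RA, and T7+RA and T14+RA on the same days in low serum with 1 uM all-trans RA added daily. RA was dissolved in DMSO, and whether the cultures without RA received DMSO is not stated. Each group held 3 libraries of stranded mRNA, titled as separate replicates, with 508397 to 1030820 counts per library and a median of 22 counts for a gene in a library. Every title names H9c2, but the cell line field of the labels gives H9c2 for the T0 libraries and a different number for each later library, so the line is taken here from the titles. The study's methods call the replicates biological without saying how the cultures were kept apart, and p-values measure the spread between these libraries. No replicate pair had counts as alike as repeated sampling of 1 library would give (smallest chi-square per degree of freedom 1.07).

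Levels are given as TMM-scaled CPM (a gene's counts relative to its library's total), and as CPM per kilobase of the annotation's transcript length where genes are compared. Of 8 skeletal muscle markers, 5 were analysed, and their summed level was 161 to 255 CPM at T0. Without RA it was 1162 to 1406 CPM at day 7 and 3946 to 4172 CPM at day 14, and with RA 797 to 984 and 2147 to 2570 CPM. Acta1 made up most of the sum at day 14, whereas Myod1 had a mean of 115 CPM at T0 and 80.2 CPM in T14-RA. Of 8 heart markers, Gata4 alone was analysed, at 6.90 to 21.6 CPM over all libraries. The defining heart chains Myh6 and Myh7 were not analysed here, so the labelled myocardium could not be checked against them. The 5 smooth muscle markers summed to 15506 to 17073 CPM at T0 and to 3439 to 5429 CPM in the later groups. Most of the T0 sum was Acta2, with a mean of 12684 CPM, and Tagln, at 2829 CPM. Acta2, Tagln, Cnn1 and Lmod1 had lower means in every later group. The smooth muscle heavy chain Myh11 did not share that fall, with low means of 10.0 CPM at T0 and 7.72 to 13.2 CPM later. Of 6 fibroblast markers, 3 were analysed, and they summed to 24296 to 37279 CPM at T0 and 18301 to 25552 CPM later. Nearly all of this sum was the collagen gene Col1a1, with a mean of 29893 CPM at T0. The matrix genes Dcn and Lum went the other way, with no count at T0, means of 50.5 and 28.5 CPM in T14-RA, and means of 119.8 and 6.24 CPM in T14+RA. Of 4 endothelial markers, 1 was analysed, at 6.29 CPM at most, and of 4 macrophage markers 0 were analysed. In bulk RNA, more cells of a type and more RNA per cell cannot be told apart, and the part of a changing cell mixture in the values below was not tested.

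The 3 sarcomeric genes and Myh10 lie on chromosome band 10q24 and Myh9 on 7q34 in the deposited annotation. In the RefSeq gene order the muscle cluster runs Sco1, Myh3, Myh2, Myh1, Myh4, Myh8, Myh13, Gas7. The identifiers were ENSRNOG00000046276 for Myh3, ENSRNOG00000049695 for Myh4, ENSRNOG00000050042 for Myh8, ENSRNOG00000004860 for Myh9 and ENSRNOG00000002886 for Myh10. The promoters of Myh3, Myh4 and Myh10 are shown because these genes carry nearly all of the heavy chain counts and followed different courses. Each run is RefSeq sequence of build GRCr8, a later build than the Rnor 6.0 of the counts, on the plus strand, from 250 bases before to 50 bases after the annotated start. They span chr10:52268935-52269234 for Myh3, chr10:52421898-52422197 for Myh4 and chr10:53893014-53893313 for Myh10. Capitals mark matches, on either strand, to an E-box (CANNTG, the site of the myogenic bHLH factors), a TATA box (TATAAA), a MEF2 motif or a CArG box.

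Myh3: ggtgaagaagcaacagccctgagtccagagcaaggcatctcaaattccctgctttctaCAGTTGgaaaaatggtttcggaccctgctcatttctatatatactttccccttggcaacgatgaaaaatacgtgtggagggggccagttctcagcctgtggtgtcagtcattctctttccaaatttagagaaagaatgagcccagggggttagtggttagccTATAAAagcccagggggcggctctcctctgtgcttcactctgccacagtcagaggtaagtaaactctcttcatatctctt

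Myh4: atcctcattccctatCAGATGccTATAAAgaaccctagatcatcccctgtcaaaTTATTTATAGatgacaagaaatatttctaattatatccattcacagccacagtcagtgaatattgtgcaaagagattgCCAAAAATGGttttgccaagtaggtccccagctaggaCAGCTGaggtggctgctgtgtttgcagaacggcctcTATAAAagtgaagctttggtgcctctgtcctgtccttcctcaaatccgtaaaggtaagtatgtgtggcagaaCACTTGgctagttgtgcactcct

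Myh10: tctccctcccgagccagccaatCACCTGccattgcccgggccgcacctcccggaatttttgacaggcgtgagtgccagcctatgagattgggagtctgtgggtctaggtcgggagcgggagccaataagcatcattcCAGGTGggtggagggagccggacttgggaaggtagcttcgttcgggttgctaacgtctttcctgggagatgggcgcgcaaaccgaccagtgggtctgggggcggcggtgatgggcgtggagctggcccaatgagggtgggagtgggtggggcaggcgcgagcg

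The Myh3 window held 1 E-box, at position -192 from the start, and 1 TATA box at position -30. The Myh4 window held 3 E-boxes, a CArG box at position -118, a MEF2 motif at position -196 and 3 TATA boxes, of which 1 lay inside the MEF2 match. The Myh10 window held 2 E-boxes and no match to the other motifs. The Myh8 window, chr10:52462259-52462558, held no match to any of the 4. Myh9 has a pair of windows, both on the minus strand. In the one at chr7:111304914-111305213 there were 1 E-box and a MEF2 motif at position -182 with a TATA match inside it, and the one at chr7:111276878-111277177 held 2 E-boxes and none of the other motifs. The window of Myh1, whose counts were not analysed here, held a MEF2 motif at position -212 and 2 TATA boxes. Among 33469 promoter windows of the same 300 bases, 72.1% held an E-box, 14.22% a TATA box, 3.287% a MEF2 motif and 1.637% a CArG box. A match describes the letters of these windows only.

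Myh3, the embryonic chain, was the most abundant of the genes after T0. Its level was 35.9, 30.0 and 56.6 CPM in the T0 libraries. It was 1263, 1261 and 1492 CPM in T7-RA, and 4937, 5021 and 5209 CPM in T14-RA. With RA it was 546, 521 and 670 CPM at day 7 and 1747, 1757 and 2119 CPM at day 14. The groups stood in the order T0, T7+RA, T7-RA, T14+RA, T14-RA, and no neighbours in that order overlapped. Of all genes, 12.6% lay lower in T7+RA than in T7-RA without overlap, and 13.9% lower in T14+RA than in T14-RA. The shares for the other neighbours were not counted. The RA cultures of day 14 therefore lay above the untreated cultures of day 7 and below those of day 14. Relative to T0, the mean was 32.8-fold higher at day 7 and 124-fold higher at day 14 without RA, and 14.18-fold and 45.9-fold higher with RA.

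**Figure D1:**
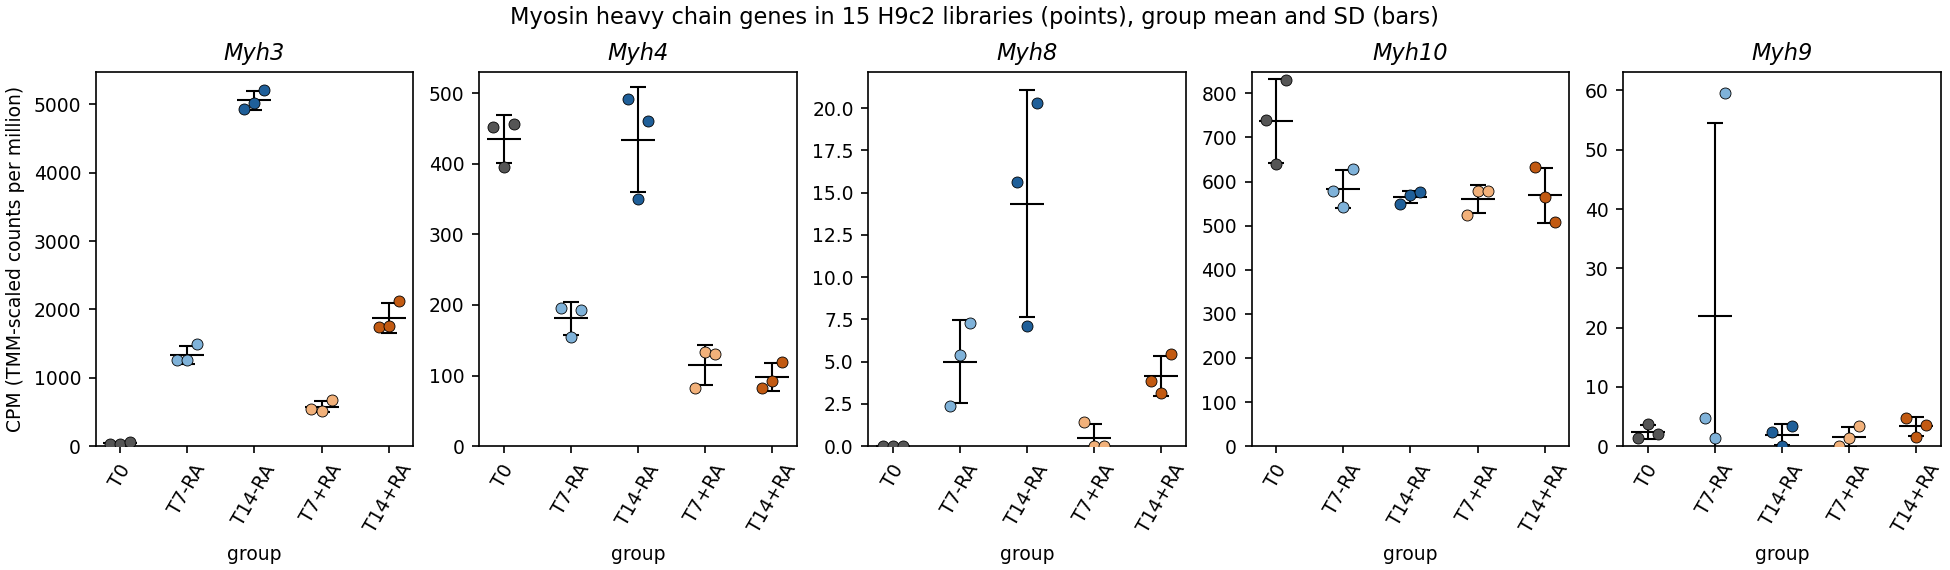
Level of each heavy chain gene in CPM (vertical axis, linear, a scale of its own per gene) in the 5 groups, with 1 point per library and bars for the mean and SD of 3 libraries. Myh3 rises from a mean of 40.8 CPM at T0 to 5056 CPM in T14-RA, Myh4 has means of 435 CPM at T0 and 434 CPM in T14-RA against 115 and 98.1 CPM in the RA groups, Myh8 and Myh9 stay low apart from 1 Myh9 point at 59.5 CPM, whose lower SD bar is cut at 0, and Myh10 is highest at T0.

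Myh4, the fast adult chain, followed another course and was already abundant at T0. Its level was 452, 396 and 457 CPM at T0. Without RA it was 196, 155 and 193 CPM at day 7 and 491, 351 and 461 CPM at day 14. With RA it was 82.7, 133 and 130 CPM at day 7 and 82.0, 92.7 and 120 CPM at day 14. T0 and T14-RA overlapped, T7-RA lay below both, and the 2 RA groups overlapped each other and lay below T7-RA. Shares of all genes without overlap, where counted, are given with the tests below. The level without RA thus went down and came back within 14 days, whereas the level with RA was low on both days.

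Myh8, the perinatal chain, was near the limit of this depth. No T0 library held a count. Without RA there were 2, 4 and 5 counts at day 7 and 13, 4 and 12 at day 14, and with RA 1, 0 and 0 at day 7 and 4, 2 and 3 at day 14. Of its 50 counts in all libraries, 29 were in T14-RA. Its mean of 14.34 CPM there was at least 2.68-fold higher than at T0, with a floor of 3 counts per library for T0, a bound that covers counting error only. The other groups lay under or close to that floor.

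Myh10, the nonmuscle chain IIB, was abundant in every group. Its level was 739, 640 and 830 CPM at T0. Without RA it was 580, 543 and 627 CPM at day 7 and 550, 570 and 576 CPM at day 14. With RA it was 525, 579 and 578 CPM at day 7 and 634, 564 and 508 CPM at day 14. In TMM-scaled CPM, T0 was above the other 4 groups without overlap, and those 4 overlapped each other. Between T7-RA and T0, 33.3% of all genes did not overlap, counting either direction. The mean at T0 was 1.26-fold that of T7-RA and 1.30-fold that of T14-RA.

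Myh9, the nonmuscle chain IIA, had almost no counts on its row. The counts were 1, 2 and 1 at T0. Without RA they were 4, 1 and 41 at day 7 and 2, 0 and 2 at day 14, and with RA 0, 1 and 2 at day 7 and 5, 1 and 2 at day 14. A single library, T7-RA replicate 3, therefore held 41 of its 65 counts. The table has a second row named Myh9l1 (ENSRNOG00000049236), on the same band 7q34, and RefSeq lists Myh9l1 as a synonym of Myh9. That row held 452, 134 and 198 counts at T0. Without RA it held 165, 111 and 130 at day 7 and 180, 71 and 187 at day 14, and with RA 85, 178 and 109 at day 7 and 194, 114 and 80 at day 14. The Myh9 row thus took 24.0% of the counts of the pair in T7-RA replicate 3 and at most 2.51% in the other libraries. How reads shared by near-identical rows were counted is not stated, so neither row alone measures nonmuscle IIA.

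**Figure D2:**
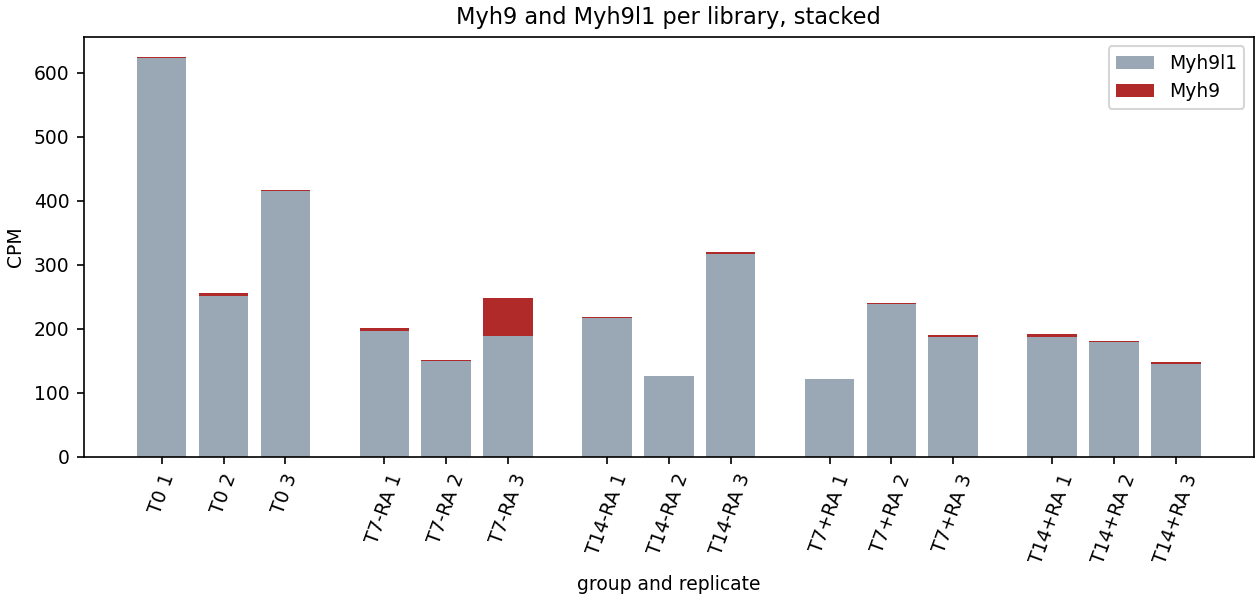
Level in CPM of the Myh9 row (red) stacked on the Myh9l1 row (grey) in each of the 15 libraries, ordered by group and replicate. Grey fills nearly the whole bar in every library except T7-RA replicate 3, where Myh9 adds 59.5 CPM to 189 CPM of Myh9l1.

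Summed over both rows, the level was 432 ± 185 CPM at T0 (mean ± SD, n = 3). It was 200 ± 48.9 CPM at day 7 and 221 ± 97.2 CPM at day 14 without RA, and 184 ± 59.8 and 174 ± 22.5 CPM with RA. The T0 libraries spread from 255 to 625 CPM, and the lowest of them was under the highest T14-RA library.

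Per kilobase, the order of the genes turned over during culture. At T0, Myh10 was at 96.5 CPM per kilobase, Myh4 at 72.1 and Myh3 at 6.77. In T14-RA, Myh3 was at 838 CPM per kilobase, Myh10 at 74.1, Myh4 at 72.0 and Myh8 at 3.23. In T14+RA, Myh3 was at 311, Myh10 at 74.5, Myh4 at 16.3 and Myh8 at 0.935 CPM per kilobase. Myh3 passed Myh10 already in T7+RA, where it was at 95.9 against 73.4 CPM per kilobase.

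The sarcomeric chains were then compared with the nonmuscle chains within each library, where scaling between libraries does not enter. Myh3, Myh4 and Myh8 together took 39.2 ± 0.934% of the counts of the 5 genes at T0 (mean ± SD, n = 3). Without RA the share was 71.6 ± 0.610% at day 7 and 90.7 ± 0.208% at day 14. With RA it was 55.2 ± 2.53% at day 7 and 77.4 ± 3.71% at day 14. No 2 groups overlapped, from the lowest T0 library at 38.2% (95% Wilson interval 34.5 to 42.0%) to the highest T14-RA library at 90.8% (90.0 to 91.6%). The RA share was lower than the untreated share on both days, and the day 14 share was above the day 7 share with and without RA. No test was made on these shares.

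**Figure D3:**
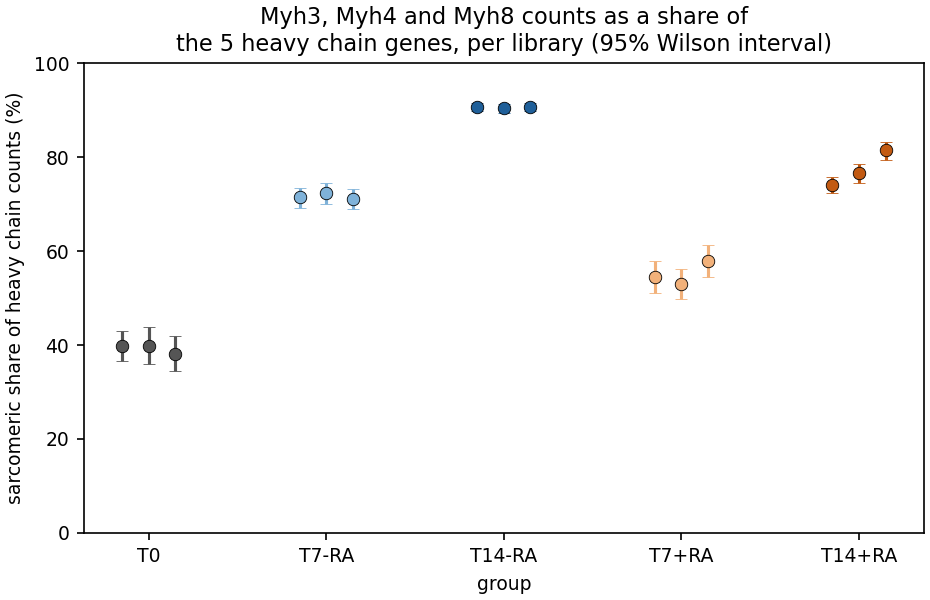
Share of the counts of the 5 heavy chain genes that fell on Myh3, Myh4 and Myh8 (vertical axis, percent), with 1 point per library in each group and bars for the 95% Wilson interval, which covers counting error only. The points run from 38.2 to 39.8% at T0 and from 90.4 to 90.8% in T14-RA, with T7+RA, T7-RA and T14+RA between them in that order.

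The make-up of the sarcomeric share changed with it. At T0, Myh4 held 91.5 ± 2.21% of the sarcomeric counts (n = 3). In the later groups Myh3 was the larger part, at 87.8 ± 1.19% (day 7) and 91.9 ± 1.36% (day 14) without RA, and 83.3 ± 3.51% and 94.9 ± 0.445% with RA. There were 0.0930 ± 0.0268 Myh3 counts for each Myh4 count at T0, against 11.9 ± 2.19 in T14-RA and 19.3 ± 1.83 in T14+RA. Left without Myh4, an alternative added after seeing the data, the sarcomeric share was 5.15% at T0 and kept the order of the groups. Left without Myh3, it was 37.2% at T0, 23.5 and 43.9% on the 2 days without RA, and 16.9 and 15.3% on the 2 days with RA. With the Myh9l1 counts added to the nonmuscle side, also chosen after seeing the data, it was 29.3, 66.1, 87.5, 48.3 and 72.5% in the same order. All 5 genes together took 0.115% of the library at T0, 0.218% at day 7 and 0.619% at day 14 without RA, and 0.126% and 0.257% with RA. T0 and T7+RA overlapped in this fraction, from 0.103 to 0.126% and from 0.116 to 0.138%, although Myh4 led the sarcomeric counts in the former and Myh3 in the latter.

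Changes with time and RA were tested with edgeR over all 11574 genes, first in an additive model with a term for day 7, a term for day 14 and 1 RA term for both days, and then in a model of 5 group means. P-values were adjusted by the Benjamini-Hochberg method, and genes were called at an adjusted p under 0.001 (under 0.05 for the difference between days). The T7 and T14 terms share the T0 libraries, and the weekly changes share their groups with the RA changes.

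For the first week, the T7 term called 1 of the 5 genes upward, where 4.29% of all genes were called upward. This was Myh3, at a log2 change of 5.11 (SE 0.159, adjusted p = 4.95e-34). Myh4 had a log2 change of -0.93 (adjusted p = 0.0536) in this term. Because the additive model allows a single RA term, T7-RA was also compared directly with T0, an alternative added after seeing the data. There Myh3 rose by 5.06 and Myh4 fell by 1.26 on the log2 scale (SE 0.136, adjusted p = 1.30e-10), 2 of 5 genes where 8.78% of all genes were called in either direction. By range, 4 of the 5 genes did not overlap between T7-RA and T0, among 33.3% of all genes, with Myh3 and Myh8 higher and Myh4 and Myh10 lower. For Myh8 these were 2 to 5 counts against 0, and the T7-RA mean was under the floor of T0.

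For 14 days, the T14 term called Myh3 and Myh8 upward, 2 of 5 genes where 8.47% of all genes were called upward. Myh3 rose by 6.93 on the log2 scale (SE 0.160, adjusted p = 4.15e-41). Myh8 passed with an adjusted p of 1.19e-05, and its fold is bounded only by the counts given above. It was not tested at all under either of the stricter filters on low counts. Myh10 had a log2 change of -0.36 (SE 0.103, 95% interval -0.57 to -0.16, adjusted p = 0.00401), and it was called downward (adjusted p = 0.000809) when T0 replicate 2 was left out. Myh4 had a log2 change of -0.24 (adjusted p = 0.583). In the direct comparison of T14-RA with T0, where 7.83% of all genes were called upward, Myh3 and Myh8 were again the genes called, and Myh4 had a log2 change of 0.00 (adjusted p = 0.982).

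The second week was taken as T14-RA against T7-RA and as T14+RA against T7+RA. Without RA, Myh3 rose by 1.92 (SE 0.0970, adjusted p = 1.03e-24) and Myh4 by 1.27 on the log2 scale (SE 0.134, adjusted p = 1.94e-10), 2 of 5 genes where 1.87% of all genes were called upward. Both also lay higher at day 14 without overlap, as did 13.2% of all genes. With limma on quantile-normalized counts Myh4 rose by 1.30 with an adjusted p of 0.00355 and was not called. With RA, Myh3 rose by 1.70 (SE 0.102, adjusted p = 2.74e-21), 1 of 5 genes where 2.4% were called upward. Myh4 had a log2 change of -0.27 there (95% interval -0.62 to 0.09, adjusted p = 0.407). Myh3 and Myh8 did not overlap between T7+RA and T14+RA and were higher in the latter, among 14.4% of all genes, Myh8 on 0 to 1 counts against 2 to 4, at or near the floor. Myh10 had log2 changes of -0.05 without and 0.03 with RA, with 95% intervals of -0.25 to 0.16 and -0.18 to 0.24.

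Myh3 fell with RA on both days and Myh4 at day 14, Myh8 was not called for RA, and Myh10 overlapped between cultures with and without RA. At day 7, all 3 sarcomeric chains were lower in T7+RA than in T7-RA without overlap, as were 12.6% of all genes. For Myh8 this rests on 2 to 5 counts against 0 to 1, at or near the floor of 3 counts. At day 14 all 3 were again lower without overlap, as were 13.9% of all genes. Myh8 then had 4 to 13 counts against 2 to 4, so its counts met and only its CPM did not overlap. Both nonmuscle chains overlapped on both days.

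In the additive model, Myh3 fell with RA by 1.33 on the log2 scale (SE 0.0789, adjusted p = 4.86e-21), 1 of 5 genes where 3.07% of all genes were called downward. Myh4 had an RA term of -1.47 (SE 0.264, adjusted p = 0.00208) and Myh8 one of -2.03 (SE 0.515, adjusted p = 0.00308), neither past the threshold. Leaving out T7+RA replicate 2 brought Myh4 past it (-1.64, adjusted p = 0.000932), and so did DESeq2, limma-voom and limma-trend. The RA term of Myh10 was -0.02 (95% interval -0.18 to 0.14, adjusted p = 0.922).

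By day, the mean of Myh3 was 2.31-fold lower with RA at day 7 and 2.70-fold lower at day 14. At day 7, Myh3 fell with RA by 1.21 on the log2 scale (SE 0.102, adjusted p = 5.00e-15), from a mean of 1338 to 579 CPM. It was 1 of 5 genes called, where 1.3% of all genes were called downward. Myh4 had a log2 change of -0.66 (SE 0.159, adjusted p = 0.00332), from 181 to 115 CPM, which did not pass. With limma on quantile-normalized counts the day 7 change of Myh3 was -1.25 (adjusted p = 0.00323), which did not pass. At day 14, Myh3 fell with RA by 1.43 (SE 0.0953, adjusted p = 1.45e-19), from 5056 to 1874 CPM, and Myh4 fell by 2.19 (SE 0.149, adjusted p = 1.89e-17), from 434 to 98.1 CPM. These were 2 of 5 genes, where 2.35% of all genes were called downward. Myh8 was at a mean of 14.34 CPM without and 4.15 CPM with RA at day 14 (adjusted p = 0.0393), which did not pass.

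The RA change of Myh4 was larger at day 14 than at day 7. The difference was -1.53 on the log2 scale (SE 0.222, 95% interval -1.98 to -1.09, adjusted p = 7.35e-06), and Myh4 was the 1 of 5 genes called, where 0.458% of all genes were called downward. Myh3 had a difference of -0.22 (95% interval -0.50 to 0.06, adjusted p = 0.725) and Myh10 one of 0.08 (95% interval -0.21 to 0.37, adjusted p = 0.948). The interval of Myh8 ran from -1.30 to 3.52, too wide to place it with either. With limma on quantile-normalized counts the Myh4 difference was -1.51 with an adjusted p of 0.0752, over the threshold.

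**Figure D4:**
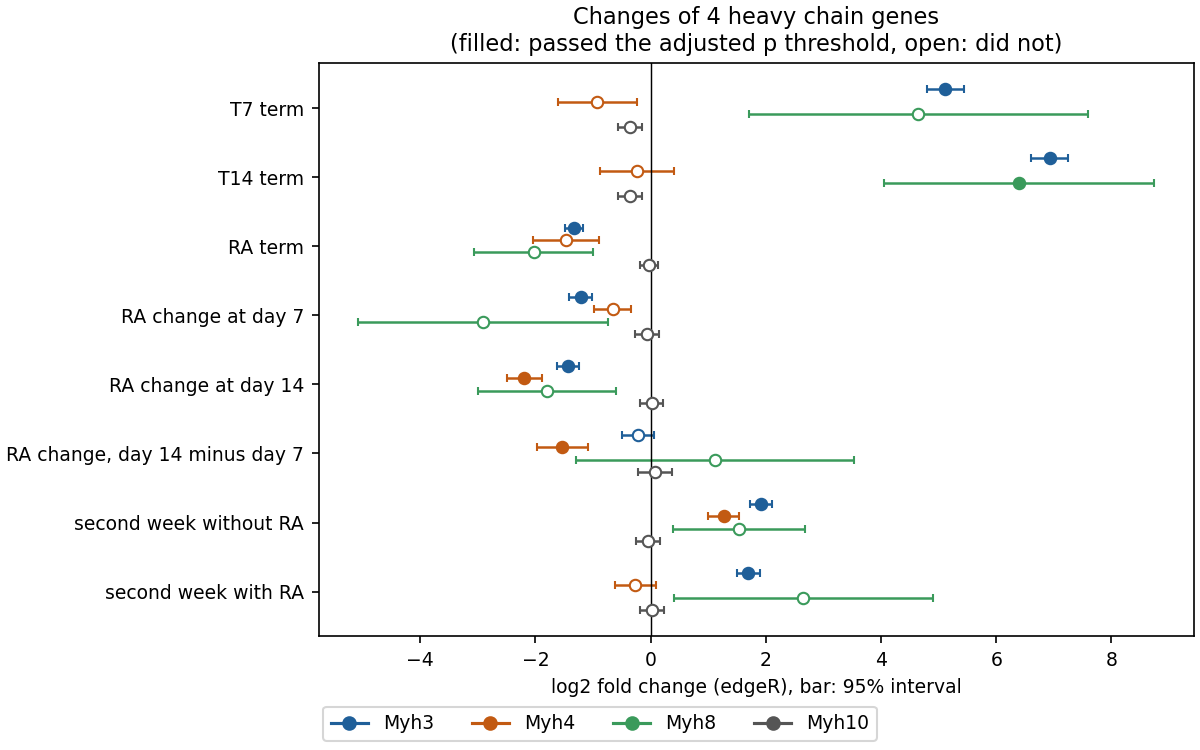
Log2 fold change from edgeR (horizontal axis) of Myh3, Myh4, Myh8 and Myh10 in the 8 comparisons (vertical axis), with bars for the 95% interval and filled points where the adjusted p passed the threshold. Myh3 is filled in every comparison but the difference between days, Myh4 is filled in the RA change at day 14, the difference between days and the second week without RA, Myh8 in the T14 term alone, and no Myh10 point is filled. The T7 and T14 values of Myh8 rest on T0 libraries without a count and depend on the fit.

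Myh9 was called in none of the 8 comparisons of these models. Its RA change at day 7 was -3.66 on the log2 scale (SE 1.38, adjusted p = 0.175). Without T7-RA replicate 3 that change was -0.99 (adjusted p = 0.779), and the T7 term moved from 2.80 to -0.07. With the rows Myh9 and Myh9l1 summed, added after seeing the data, the T7 term was -1.08 (adjusted p = 0.0404), the T14 term -1.04 (adjusted p = 0.0345) and the RA term -0.23 (95% interval -0.84 to 0.39, adjusted p = 0.712), none past the threshold.

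The genes most like each member were taken as the 3 with the highest Pearson correlation of log2 CPM over the 15 libraries, among 8376 genes with a mean count of at least 10. The libraries share groups and depth, so these values describe the patterns only. For Myh3 they were Mylpf (r = 0.9932), the fast regulatory light chain, Tnnt3 (0.9877), fast troponin T, and Acta1 (0.9851), skeletal actin. For Myh4 they were Hip1 (0.9602), a clathrin adaptor, Mical2 (0.9287), an enzyme that oxidises actin, and Bcl9l (0.9233), a Wnt coactivator. For Myh8 they were Mypn (0.9554), which encodes the Z-disc protein myopalladin, Mef2a (0.9374) and Fam53b (0.9355). For Myh10 they were Mmp14 (0.9203), Rrbp1 (0.9093) and Tmem115 (0.9057). For Myh9 the highest was Tbl1x at 0.7898, on a row with 65 counts. Between the members, Myh3 and Myh8 had r = 0.8221, Myh3 and Myh4 -0.246, and Myh3 and Myh10 -0.7033.

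Partner genes of the heavy chains were read from lists, of which at most 4 genes were named, those with the lowest p for T14. All lists are set against 8.47% of genes called upward and 8.85% downward for T14, and 3.33% upward and 3.07% downward for RA. Over all genes the median log2 change was 0.05 for T14 and -0.01 for RA.

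The sarcomeric light chains went with Myh3. Of 6 listed, 3 were analysed, all 3 rose with T14 (median log2 change 6.61) and all 3 fell with RA (median -1.57). Mylpf went from a mean of 43.6 CPM at T0 to 4172 in T14-RA and 1393 in T14+RA. Myl1, the alkali light chain of fast fibres, had no count at T0 and was at 172 CPM in T14-RA and 62.1 CPM in T14+RA. Myl4, the atrial and embryonic alkali light chain, rose by 6.52 with T14 and fell by 1.84 with RA on the log2 scale.

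The nonmuscle and smooth muscle light chains did not share that course. Of 4 analysed of 5, none rose and 2 fell with T14 (median -0.62), and 1 rose with RA (median 0.03). Myl9, the smooth muscle regulatory chain, was at 1242 CPM at T0, 583 in T14-RA and 972 in T14+RA. Its RA term was 0.47 (SE 0.0907, adjusted p = 0.000104). Myl6, the essential chain, fell by 0.90 with T14, and Myl12a and Myl12b were not called for T14 or RA.

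Thick filament and M-band partners rose as a list. Of 6 analysed of 9, all 6 rose with T14 (median 5.89) and 2 fell with RA (median -0.63). Myom2, an M-band protein, was at 1.86 CPM at T0, 267 in T14-RA and 59.7 in T14+RA. Mybph, a myosin binding protein, had a T14 term of 5.30 and an RA term of -0.14 (adjusted p = 0.547). Mybpc1, slow myosin binding protein C and the other gene that fell with RA, had an RA term of -3.84 and is named after its values were seen.

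Among 9 genes of myosin folding and assembly, all analysed, 5 rose and 3 fell with T14 (median 1.21), and 1 rose and 1 fell with RA (median 0.33). Unc45b, the chaperone of striated muscle myosin, was at 3.57 CPM at T0, 142 in T14-RA and 122 in T14+RA. Trim54, a microtubule-bound muscle ubiquitin ligase, was at 1.95 CPM at T0, 121 in T14-RA and 17.1 in T14+RA. Smyd1, a methyltransferase of myosin assembly, and Trim63, a ubiquitin ligase of the same family as Trim54, rose by 3.34 and 3.10 with T14. The gene that rose with RA was Trim55, a relative of Trim54 named after its values were seen, at an RA term of 1.86 (SE 0.105, adjusted p = 3.75e-22).

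Of 12 regulators of nonmuscle myosin, all analysed, 2 rose and 4 fell with T14 (median -0.15), and 2 rose and 1 fell with RA (median 0.03). Anln, which encodes the cytokinesis scaffold anillin, was at 267 CPM at T0, 55.7 in T14-RA and 36.6 in T14+RA. S100a4, a calcium-binding protein that disassembles nonmuscle IIA filaments, was at 267 CPM at T0, 878 in T14-RA and 183 in T14+RA. Mprip, which brings myosin phosphatase to stress fibres, fell by 1.23 with T14, and Ppp1cb, the catalytic subunit of that phosphatase, rose by 1.08. The 2 genes that rose with RA were Mylk, the myosin light chain kinase, at an RA term of 1.02, and the kinase Rock2 at 0.64, both named after their values were seen.

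Of 11 myogenic transcription factors, 8 were analysed, 4 rose and none fell with T14 (median 0.78), and 2 rose and 2 fell with RA (median -0.01). Myog, the differentiation factor myogenin, was at 48.6 CPM at T0, 638 in T14-RA and 569 in T14+RA, with an RA term of -0.30 (adjusted p = 0.00501), which did not pass. Mef2a, a MADS-box factor, was at 71.8 CPM at T0, 217 in T14-RA and 98.4 in T14+RA, with an RA term of -0.997 (adjusted p = 7.70e-09). Six4 rose by 0.98 with T14, and Mef2c (RA term -0.69) and Tead4 (0.75) were also called for RA, named after their values were seen.

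Of 8 other heavy chain genes listed, 3 were analysed and none was called for T14 or RA. Myh11, the smooth muscle chain, was at 10.0 CPM at T0 and 13.2 in T14-RA. Myh7b, a slow chain of the sarcomeric family, was at 5.21 and 7.40 CPM, and Myh14, the nonmuscle chain IIC, at 0.625 and 8.20 CPM in the same groups. These rest on 1 to 5 and 4 to 6 counts per library for Myh7b and 0 to 1 and 4 to 6 for Myh14, near the floor. The T14 term of Myh14 was 3.38 (SE 1.01, adjusted p = 0.00614), which did not pass. The sarcomeric genes are close in sequence, and how the counting treated reads that match several of them is not stated, so the split between Myh3, Myh4 and Myh8 is uncertain to that extent.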

How the data were processed

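RNA-seq counts of 15 libraries of H9c2 cells in 5 groups of 3 were analysed, grouped by the sample labels. The authors trimmed the reads, mapped them with HISAT2 (Rnor 6.0, per the submitters' processing notes) and counted them with featureCounts. Raw, unnormalized counts were deposited by the authors, without the genes of lowest summed count (the smallest sum in the table was 21). Multimapping and strand settings are not given in the sources used here, nor is the release of the annotation. The deposited annotation gave symbols, bands and a length per gene, a value of the authors in the unit of bases.

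The 6 members and all lists were chosen with earlier results of these data known. Counts were fitted in edgeR 4.0.16 (R 4.3.3) with TMM factors, robust quasi-likelihood F tests and Benjamini-Hochberg adjustment over all 11574 genes. One model, after the study's formula, was additive in T7, T14 and RA, and the other had 5 group means. The study used limma, run here as an alternative. The threshold was an adjusted p of 0.001, and 0.05 for the difference between days. The SE is the absolute log2 change over the square root of F. The biological coefficient of variation was 9.81%. The floor of a group was 3 counts per library. Intervals are at 95% and cover counting error only where they belong to shares, since reads carry no molecular identifiers. The log2 CPM for likeness had a prior count of 2. Members were named in every comparison, partners at most 4 per list by T14 p-value, and the 3 most alike genes per member. Some genes of the lists enter the counts and medians but are not reported here by name.

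Alternatives were DESeq2 1.42.0, limma 3.58.1 (voom, trend, quantile), relative log expression, library size only, filters on low counts, thresholds, a replicate block and 15 single libraries left out. The scripts were tested on simulated data. Same-numbered libraries had correlated deviations of -0.0394 to 0.186 over 30 pairs, and the labels name no shared day, so numbers were not taken to pair libraries. Promoter windows came from RefSeq GRCr8.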

Additional observations from a re-analysis of the deposited data

Results flagged for a closer look

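The RA change of Myh4 differed between the days, by an interaction contrast in the model of group means. The difference, day 14 minus day 7, was -1.53 on the log2 scale (edgeR adjusted p = 7.35e-06). Without RA the gene was at 181 ± 23.0 CPM at day 7 and 434 ± 73.9 CPM at day 14, and with RA at 115 ± 28.3 and 98.1 ± 19.4 CPM (mean ± SD, n = 3). All 3 T14+RA libraries lay below all 3 T14-RA libraries, and all 3 T7+RA libraries lay below all 3 T7-RA libraries. With each of the 15 libraries left out in turn, the difference ran from -1.73 to -1.39, with adjusted p from 3.17e-07 to 0.000308. With limma on quantile-normalized counts it was -1.51 (adjusted p = 0.0752) and was not called, and the adjusted p of the other 8 alternatives ran from 8.36e-08 to 0.000392.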

How the results depend on the processing

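Myh3 kept its direction in every comparison under all alternatives run. With limma on quantile-normalized counts, all genes called came to 297 (T7 term), 1095 (T14 term), 310 (RA term), 97 (RA at day 7), 157 (RA at day 14), 22 (difference between days), 56 (second week without RA) and 93 (second week with RA), against 1010, 2004, 740, 367, 557, 86, 342 and 540 in edgeR. This limma form called 0 heavy chains for RA at day 7 (3 at its unadjusted p under 0.05, and 1 called in edgeR), 0 for the difference (1 at its unadjusted p under 0.05, and 1 called in edgeR) and 1 for the second week without RA, and it gave -0.15 for Myh9 in the T14 term and -0.068 for Myh10 in RA at day 14, both reversed. Genes called upward and downward were 200 and 97 there for T7 (edgeR 496 and 514) and 51 and 5 for the second week without RA (edgeR 216 and 126). With library size only, they were 648 and 358 for T7 and 1221 and 844 for T14 (edgeR 980 and 1024), the median of all genes moved by 0.11 on the log2 scale in both terms, Myh10 was at -0.25 in both, and the Myh10 RA change at day 14 was -0.00016. The other threshold (0.05, or 0.001 for the difference) called 2679, 4102, 1701, 858, 1291, 25, 902 and 1315 genes in the same order, and 3 heavy chains for T7, 3 for RA and 2 for RA at day 7. The second week without RA had 209 genes with at least 10 counts in every library and 223 with limma-trend. Limma-voom called 2 heavy chains for T7, among 851 genes, and DESeq2, limma-voom and limma-trend called 2 for RA, among 652, 702 and 616 genes, the added gene being Myh4. Either filter on low counts left 1 heavy chain called for T14, since Myh8 was not tested there. Limma-trend gave -0.019 for the Myh8 difference between days. T7-RA against T0 called 2 heavy chains, and T14-RA against T0 gave 0.0048 for Myh4 and -0.19 for Myh9. With Myh9 and Myh9l1 summed, the log2 change was -1.08 (T7), -1.04 (T14), -0.33 (RA at day 14), -0.22 (difference), 0.15 and -0.066 (second week without and with RA). Apart from the filters and the summed rows, whose construction gives the change, the cause was not tested.

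In the order T0, days 7 and 14 without RA, then days 7 and 14 with RA, the sarcomeric share was 44.9, 76.0, 92.5, 60.9 and 81.2% per kilobase, 37.2, 23.5, 43.9, 16.9 and 15.3% without Myh3, 29.3, 66.1, 87.5, 48.3 and 72.5% with Myh9l1, and 5.15, 69.0, 89.9, 50.6 and 76.5% without Myh4.

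Leaving out 1 library gave 655 to 1061 genes for T7 (655 without T0 replicate 1) and 51 to 129 for the difference (57, 56, 51 and 56 without T14-RA replicate 1, T7+RA replicate 2, T7+RA replicate 3 and T14+RA replicate 1). It gave 200 to 420 for the second week without RA (217, 200 and 207 without T7-RA replicate 1, T7-RA replicate 2 and T14-RA replicate 1), and 1 to 2 heavy chains for RA, with Myh4 added without T7+RA replicate 2. Log2 changes whose sign turned were those of Myh9, from -0.070 to 3.26 for T7 and -2.66 to 0.038 for RA, both by T7-RA replicate 3. Those of Myh10 ran from -0.065 to 0.016 (RA), -0.11 to 0.0081 (RA at day 7), -0.074 to 0.092 (RA at day 14), -0.016 to 0.14 (difference), -0.094 to 0.0050 and -0.062 to 0.089 (second week without and with RA). For T14, Myh10 ran from -0.44 to -0.26 and was called without T0 replicate 2.

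With the replicate block, RA at day 7 called 3 heavy chains, Myh3, Myh4 (-0.65, adjusted p = 0.000797) and Myh9 (-3.38, adjusted p = 0.000925), among 429 genes called in all (367 without the block), and the counts of heavy chains called were equal in the other comparisons. Of 15 libraries, 8 correlated best with their own number, and 5 of 30 pairs were over 0.1. Depth limits Myh8, whose counts were near the floor in most libraries. The Myh9 row was also near the floor in most libraries, while Myh9 and Myh9l1 together held 71 to 453 counts per library. The cause of that split between the rows was not tested.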
